A study of Mus musculus with 2 samples.

Results

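The ligands and receptors of the VEGF and angiopoietin pathways were followed in nuclei of the developing mouse kidney. The 10 genes were chosen by symbol: the ligands Vegfa, Vegfc, Angpt1 and Angpt2, the VEGF receptors Kdr, Flt1 and Flt4, the co-receptor Nrp1, and the angiopoietin receptor Tek with its relative Tie1. All 10 of 10 were found among the 32285 genes of each library. Kidneys of male and female mice were pooled, nuclei were isolated and 1 library was made at each of 2 ages. The E18.5 library came from embryos with floxed Myc and Mycn alleles and no Cre (genotype Mycf/f;Mycnf/f) on a mixed background. The P3 library came from wild-type pups of the C57BL/6J strain by the labels, whereas the methods of the study give a mixed background at both ages. Age, genotype, strain and library therefore cannot be told apart. With 1 library per age no test between groups was possible, and all 95% intervals below are exact intervals that cover counting error only.

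VEGF-A, made by podocytes and tubules, acts on the receptor VEGFR2 (encoded by Kdr) of the adjoining capillaries, while VEGFR1 (Flt1) binds the same ligand and, in its soluble form, holds it back. VEGF-C is the main ligand of VEGFR3 (Flt4), known for its part in lymphatic growth. Angiopoietin 1, made by perivascular and epithelial cells, activates the receptor TIE2 (Tek), angiopoietin 2 opposes it in many settings, and TIE1 modifies its signal.

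Quality limits left 21270 nuclei of the E18.5 library, with a median of 3132.5 unique molecular identifiers (UMIs) each, and 11765 of the P3 library, with a median of 4534. The libraries shared 69 barcode sequences. Each library was clustered on its own without the 10 genes and the other listed pathway genes, and clusters were named from other markers. Nuclei called as doublets (3494 at E18.5 and 1977 at P3) and clusters with over 50% of such nuclei were left out of the values, which left 17037 and 9498 nuclei. Endothelium-like nuclei numbered 1057 at E18.5 and 772 at P3, podocyte-like nuclei 695 and 214, proximal tubule-like nuclei 780 and 1145. Interstitium-like and mural-like nuclei, counted together as stroma-like, numbered 4920 and 2832. A level in CPM is throughout the sum of a gene's UMIs over a class of nuclei, divided by the sum of all UMIs of the class and multiplied by 1000000. Endothelium-like nuclei held the markers of their name: the phosphatase gene Ptprb was at 782 CPM at E18.5 and 1027 at P3, against 17.3 and 15.1 in all other nuclei. In podocyte-like nuclei the slit diaphragm gene Nphs1 was at 877 and 1637 CPM, against 25.7 and 13.3 elsewhere. Since UMIs were counted at the 3′ end without scaling by length, levels are compared between nuclei and not between genes.

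The positions of the genes are those of GRCm38, the assembly that mm10 names, in GENCODE M21. Vegfa is on the minus strand at chr17:46016993-46032369, Kdr at chr5:75932827-75978458 and Flt1 at chr5:147561604-147726011, both on the minus strand, and Tek at chr4:94739289-94874976 on the plus strand. Promoter windows of RefSeq (GRCm38.p6) were matched for 8 of the 10 genes, all but Angpt1 and Angpt2. The 250 bases before the start of transcription are shown, 5′ to 3′ on the strand of the gene, for Vegfa as the ligand that led in podocyte-like nuclei and for 3 receptors that led in endothelium-like nuclei. Capitals mark GGAAG, which is a form of the ETS core, and the GC box GGGCGG, read on both strands. Other forms of the ETS core were not sought and are not marked.
Vegfa, chr17:46032378-46032627: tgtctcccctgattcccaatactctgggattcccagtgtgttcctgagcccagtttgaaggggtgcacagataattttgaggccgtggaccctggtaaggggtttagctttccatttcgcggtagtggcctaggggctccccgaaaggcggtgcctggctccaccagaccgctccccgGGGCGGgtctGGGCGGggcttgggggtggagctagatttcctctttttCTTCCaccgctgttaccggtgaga
Kdr, chr5:75978456-75978705: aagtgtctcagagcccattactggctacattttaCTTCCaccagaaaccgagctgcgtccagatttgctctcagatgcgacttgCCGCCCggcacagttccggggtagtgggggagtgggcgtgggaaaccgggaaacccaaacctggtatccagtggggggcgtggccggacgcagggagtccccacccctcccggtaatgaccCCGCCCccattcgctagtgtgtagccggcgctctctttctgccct
Flt1, chr5:147726012-147726261: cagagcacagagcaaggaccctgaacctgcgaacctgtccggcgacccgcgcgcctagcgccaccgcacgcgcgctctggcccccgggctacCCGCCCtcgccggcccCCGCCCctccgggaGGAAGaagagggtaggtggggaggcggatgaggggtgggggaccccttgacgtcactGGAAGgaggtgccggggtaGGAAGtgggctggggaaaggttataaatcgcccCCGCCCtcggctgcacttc
Tek, chr4:94739039-94739288: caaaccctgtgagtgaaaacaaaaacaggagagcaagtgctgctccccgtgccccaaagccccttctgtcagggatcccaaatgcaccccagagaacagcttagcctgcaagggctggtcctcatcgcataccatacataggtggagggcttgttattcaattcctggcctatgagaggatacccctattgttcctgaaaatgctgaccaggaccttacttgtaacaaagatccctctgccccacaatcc
The Flt1 window held 3 runs of GGAAG and 3 GC boxes, and the Kdr and Vegfa windows 1 run of GGAAG and 2 GC boxes each. Neither GGAAG nor the GC box was in the Tek window, which was not searched for other forms of the ETS core. Vegfa has another RefSeq window, chr17:46025164-46025413, which is not shown. It held 1 run of GGAAG and 1 GC box and shares 218 bases with annotated exons. The Kdr window shares 3 bases with an annotated exon, and the other windows shown share none. No match overlapped another in these 4 windows. Over 32851 windows of the same 250 bases, 64.1% held GGAAG and 32.7% the GC box, and a match here is a description of the letters.

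Vegfa was led by podocyte-like nuclei at both ages. Its level there was 595 CPM (1306 UMIs, 95% interval 564 to 629) at E18.5 and 762 CPM (773 UMIs, 709 to 818) at P3. All other nuclei together were at 108.5 and 95.7 CPM, which put podocyte-like nuclei 5.49-fold (5.16 to 5.83) higher at E18.5 and 7.97-fold (7.37 to 8.61) higher at P3. After thinning to 1000 UMIs per nucleus, 41.4% of podocyte-like nuclei at E18.5 and 45.8% at P3 had a Vegfa UMI, against 5.63% and 4.02% of endothelium-like nuclei. Without thinning the shares were 75.7% and 82.7% in podocyte-like nuclei (median depths of 2950 and 4359.5 UMIs) and 13.7% and 9.72% in endothelium-like nuclei (2837 and 3456.5 UMIs). Endothelium-like nuclei, which carry the receptors, had the lowest Vegfa level of all classes at both ages, at 51.1 and 27.1 CPM.

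Tubule classes followed podocytes in the order for Vegfa. At E18.5 distal tubule-like nuclei were at 235 CPM, loop of Henle-like nuclei at 203 and proximal tubule-like nuclei at 178, and the intervals of the ratios between these neighbors included 1. At P3 proximal tubule-like nuclei came next at 177 CPM, above distal tubule-like nuclei at 144 by 1.22-fold (1.05 to 1.44). Proximal tubule-like nuclei, 4.58% of the nuclei at E18.5 and 12.1% at P3, held 8.16% of all Vegfa UMIs at E18.5 and 29.2% at P3. Podocyte-like nuclei held 19.6% and 16.1% with 4.08% and 2.25% of the nuclei. The size of the proximal tubule-like class at E18.5 depends on the clustering. Its 780 nuclei became 1788 with Leiden clustering, 1895 with 20 neighbors and 880 with doublets taken out first. At P3 its 1145 nuclei became 1537, 1251 and 1312. The shares of UMIs are those of the 780 and 1145 nuclei. The P3 podocyte-like nuclei lay in 2 clusters that differed in Vegfa. A cluster of 124 nuclei with Podxl and Ddn among its leading genes was at 1103 CPM, and a cluster of 90 nuclei with Ndnf and Sgip1 among its leading genes at 352, a ratio of 3.13 (2.63 to 3.75). At E18.5 podocyte-like nuclei made a single cluster.

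**Figure D1:**
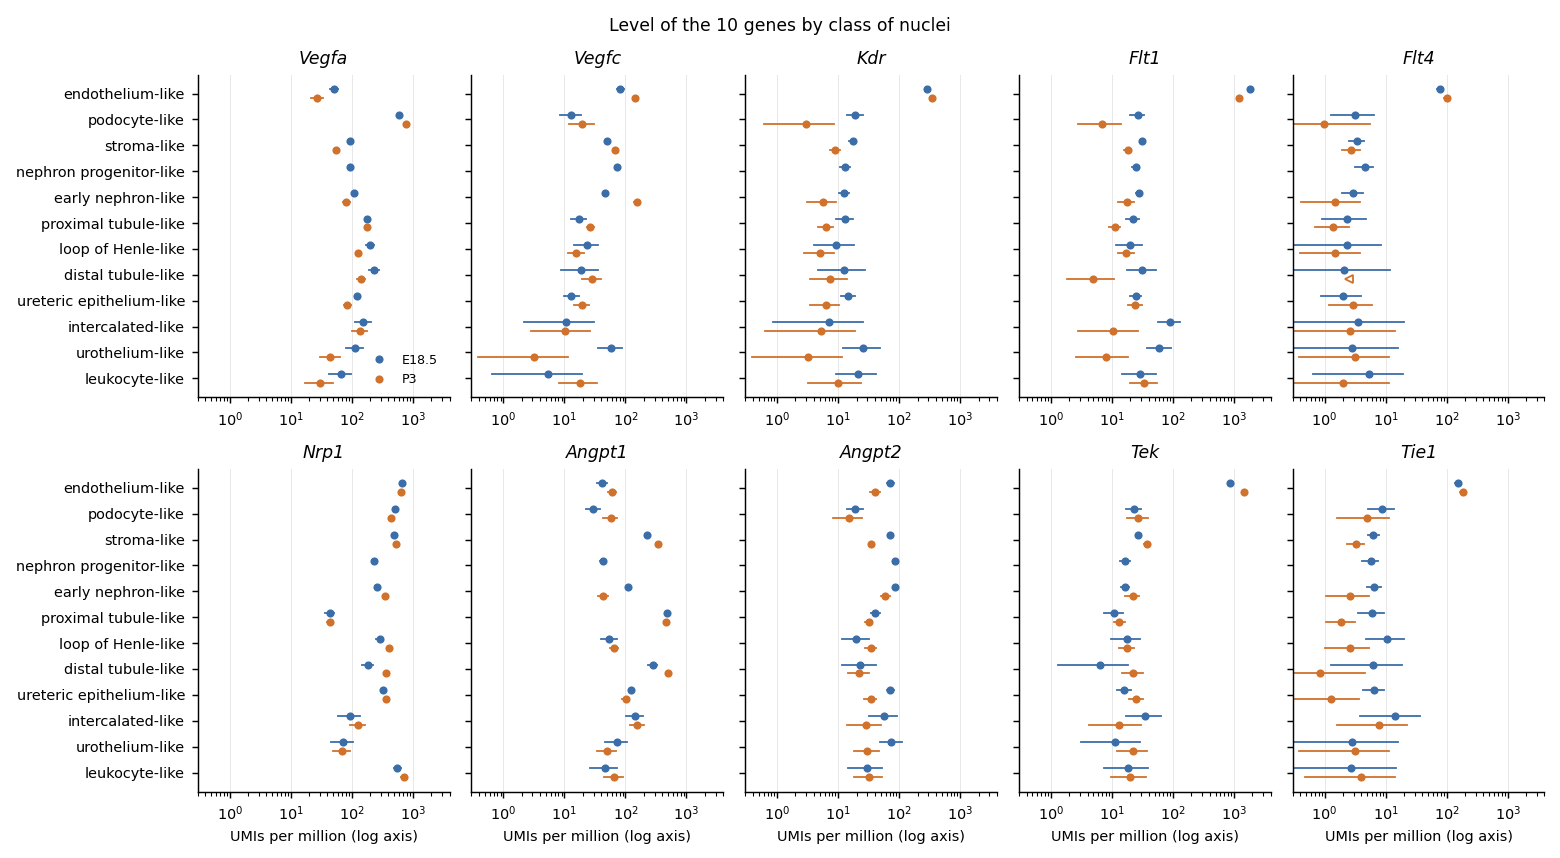
Level of each of the 10 genes (CPM, on a log axis) in 12 classes of nuclei, by age (E18.5 and P3). At P3 no cluster was named nephron progenitor-like, so that class has points at E18.5 only. Points are levels and lines exact Poisson 95% intervals, and the open triangle marks a class with 0 UMIs, set at the CPM of 3 UMIs. Kdr, Flt1, Flt4, Tek and Tie1 stand apart in endothelium-like nuclei, Vegfa in podocyte-like nuclei, and Nrp1 and Angpt1 spread over several classes.

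Vegfc was spread over endothelium-like, nephrogenic and stroma-like nuclei. Stroma-like nuclei, 28.9% of the nuclei at E18.5 and 29.8% at P3, held 33.5% and 27.9% of its UMIs. Their levels were 50.5 and 66.5 CPM. Endothelium-like nuclei held 11.2% and 14.02% of the UMIs. Unnamed nuclei held 4.53% and 32.3%, with 15.8% and 27.6% of the nuclei. Endothelium-like nuclei were at 82.7 CPM (267 UMIs) at E18.5 and 144 CPM (425 UMIs) at P3. Nephron progenitor-like nuclei at E18.5 were at 74.1 CPM, and the interval of the endothelial ratio to them included 1 (1.12, 0.96 to 1.29). At P3 no cluster was named nephron progenitor-like. The highest named class was early nephron-like nuclei at 153.6 CPM, also not separated from endothelium-like nuclei (1.07, 0.93 to 1.22). That place depends on the clustering: early nephron-like nuclei were 2.37-fold above all other nuclei, but at 0.63 of them when the listed genes were kept in the clustering. Within that class the level differed 5.36-fold (4.04 to 7.24) between a cluster led by Rmst, Lrp4 and Lhx1 at 244 CPM (219 nuclei) and a cluster led by Grid1 and Cdh6 at 45.6 CPM (226 nuclei). An unnamed P3 cluster of 737 nuclei, led by the progenitor gene Eya1 and by Bmper, was at 192 CPM. Podocyte-like nuclei were low at 12.8 and 19.7 CPM.

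Angpt1 was higher in proximal and distal tubule-like nuclei than in stroma-like nuclei, while loop of Henle-like nuclei were low at 53.7 and 65.0 CPM. At E18.5 proximal tubule-like nuclei were at 487 CPM (1488 UMIs, 463 to 513), distal tubule-like nuclei at 282 and stroma-like nuclei at 226 (3591 UMIs, 219 to 234). At P3 distal tubule-like nuclei were at 506 CPM (611 UMIs, 467 to 548), proximal tubule-like nuclei at 456 (3618 UMIs, 440.8 to 471) and stroma-like nuclei at 340.0 (4326 UMIs, 329.9 to 350.3). Each of these neighbors in the order was separated by its interval, the closest being distal over proximal tubule-like nuclei at P3 (1.11, 1.02 to 1.21). The lowest classes were podocyte-like nuclei at E18.5 with 29.6 CPM and early nephron-like nuclei at P3 with 42.4 CPM. Stroma-like nuclei were 1.93-fold above all other nuclei at E18.5 and 1.60-fold at P3, but the E18.5 direction rests on which clusters take the name: the ratio was 0.41 (0.37 to 0.47) with Leiden clustering, which named 1362 nuclei, and 0.53 (0.43 to 0.65) when markers had to be raised 3-fold, which named 335 nuclei. In counts of molecules stroma-like nuclei held the largest share of Angpt1, with 46.2% of its UMIs at E18.5 and 40.2% at P3. They were 28.9% and 29.8% of the nuclei. The share of Angpt1 UMIs in proximal tubule-like nuclei was 19.2% and 33.6%. Both classes changed in size at E18.5 with the clustering, and these shares are those of the main clustering. After thinning, 31.6% and 29.0% of proximal tubule-like nuclei had an Angpt1 UMI, against 3.02% and 8.41% of podocyte-like nuclei, and the unthinned shares were 56.9% and 62.9% against 8.92% and 20.6% (median depths of 3803.5 and 6112 against 2950 and 4359.5 UMIs).

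Within the proximal tubule-like nuclei at P3, Angpt1 split by cluster. The cluster led by Slc5a12, Slc34a1 and Slc5a2, transporters of the early convoluted tubule, was at 555 CPM (913 nuclei). A cluster led by Slco1a6 and Aadat was at 60.8 CPM (232 nuclei), with the first 9.13-fold (7.46 to 11.3) higher. Of the 2 distal tubule-like clusters at P3, the one with the sodium channel genes Scnn1b and Scnn1g among its leading genes was at 612 CPM and the one led by Slc12a3 at 439 (ratio 1.39, 1.18 to 1.64). The first had 3 of 6 distal tubule markers raised, and also 3 of 8 ureteric epithelium markers. The second had 6 of 6 distal tubule markers raised and was not above proximal tubule-like nuclei as a whole (456 CPM). The lead of distal tubule-like nuclei at P3 thus rests on the first cluster. In contrast, Vegfa differed little between the 2 proximal tubule-like clusters, at 183 and 149 CPM.

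**Figure D2:**
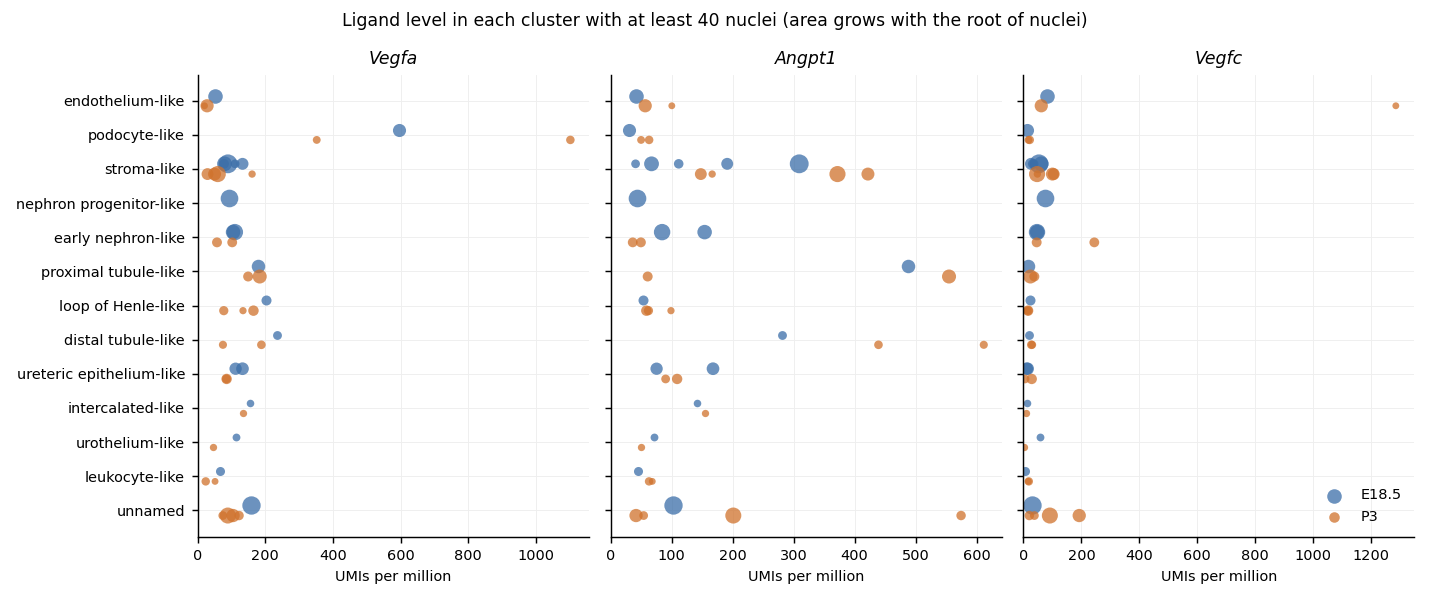
Level of Vegfa, Angpt1 and Vegfc (CPM) in each cluster with at least 40 nuclei, set out by class, with E18.5 and P3 in different colors and larger points for larger clusters. The P3 podocyte-like clusters lie at 352 and 1103 for Vegfa, the P3 proximal tubule-like clusters at 60.8 and 555 for Angpt1, and a small P3 endothelium-like cluster stands alone at 1285 for Vegfc.

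Angpt2 was low and spread over many classes. Nephron progenitor-like and early nephron-like nuclei had the highest levels at E18.5, at 85.3 and 85.1 CPM, urothelium-like nuclei were at 74.6, ureteric epithelium-like nuclei at 72.0, endothelium-like nuclei at 71.5 and stroma-like nuclei at 69.9, and no neighbor in this order was separated from the next. At P3 no cluster was named nephron progenitor-like. Early nephron-like nuclei led the named classes there at 59.5 CPM (160 UMIs), 1.49-fold (1.16 to 1.90) above endothelium-like nuclei at 40.0 CPM. Unnamed nuclei held 1.96% of Angpt2 UMIs at E18.5 and 25.5% at P3, with 15.8% and 27.6% of the nuclei. Podocyte-like nuclei were the lowest class at both ages, at 19.1 and 14.8 CPM. Endothelium-like nuclei did not differ from all other nuclei beyond counting error, with ratios of 1.08 (0.95 to 1.24) and 1.04 (0.85 to 1.25).

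The 5 receptor genes Kdr, Flt1, Flt4, Tek and Tie1 were led by endothelium-like nuclei at both ages. For Kdr the level was 288 CPM (930 UMIs, 270 to 307) at E18.5 and 347 CPM (1022 UMIs, 326 to 369) at P3, against 17.2 and 8.10 CPM in all other nuclei. For Flt1 it was 1833 CPM (5920 UMIs) and 1202 CPM (3542 UMIs), against 33.6 and 18.7. For Tek it was 877 CPM (2833 UMIs) and 1445 CPM (4261 UMIs), against 23.2 and 28.5. Flt4 stood at 78.6 CPM (254 UMIs) and 101.1 CPM (298 UMIs), and Tie1 at 152 CPM (492 UMIs) and 183 CPM (539 UMIs). The ratios to all other nuclei ran from 16.7 (Kdr) to 54.6 (Flt1) at E18.5 and from 41.0 (Flt4) to 64.4 (Flt1) at P3. For the 5 genes summed, the ratio was 37.8 at E18.5 and 53.2 at P3, and 22.9 and 35.3 when endothelium was instead taken as nuclei with 3 of 4 markers. With 6.20% of the nuclei at E18.5, endothelium-like nuclei held 52.8% of Kdr UMIs, 78.5% of Flt1 UMIs and 71.7% of Tek UMIs, and with 8.13% at P3 they held 75.9%, 82.6% and 78.8%. At the limit of a 2-fold higher level, 6 of the 10 genes were called in endothelium-like nuclei at E18.5 (the 5 receptors and Nrp1), against 8.38% of all 11746 genes compared, and 6 at P3 (the 5 receptors and Vegfc), against 9.35% of 11363 genes. Nrp1 lay just above that limit at E18.5 with 2.02 and just below at P3 with 1.90, and Vegfc the other way with 1.88 and 2.22. Genes were compared where either side had at least 10 CPM. Flt4 and Tie1 at E18.5, and Kdr, Flt4 and Tie1 at P3, met this through the endothelium-like nuclei alone. For them the call is only a description. Vegfa and Angpt1 were at least 2-fold lower at both ages, 2 of 10 against 13.8% and 18.7% of all genes.

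Outside the endothelium the receptor genes were low. In proximal tubule-like nuclei Flt1 was at 21.9 CPM at E18.5 and 11.1 at P3, which is 1.20% and 0.92% of the endothelial level. For Tek the figures were 10.8 and 13.3 CPM, or 1.23% and 0.92%, and for Kdr 12.8 and 6.30 CPM, or 4.44% and 1.82%. After thinning, 74.0% and 64.2% of endothelium-like nuclei had a Flt1 UMI against 3.22% and 1.57% of proximal tubule-like nuclei, and 49.7% and 69.5% had a Tek UMI against 0.90% and 2.45%. The unthinned shares for Flt1 were 92.8% and 92.1% against 8.21% and 6.55%, and for Tek 77.4% and 90.4% against 3.97% and 8.65%, at median depths of 2837 and 3456.5 UMIs in endothelium-like and 3803.5 and 6112 in proximal tubule-like nuclei. Flt4 had 0 UMIs in the 232 distal tubule-like nuclei at P3, which allows up to 2.49 CPM at 3 UMIs. For Kdr, Flt1, Flt4, Tek and Tie1 the class after the endothelium was not separated from the next at either age. Further apart in the order classes did differ. Tek at P3 was at 37.0 CPM (33.7 to 40.5) in stroma-like nuclei and 13.3 (10.9 to 16.1) in proximal tubule-like nuclei, and Flt1 at E18.5 was at 88.5 CPM (25 UMIs, 57.2 to 131) in intercalated-like nuclei and 31.5 (28.8 to 34.4) in stroma-like nuclei. Unnamed clusters of low depth lay between, with Flt1 at 100.4 CPM in 2666 E18.5 nuclei (median of 1249 UMIs, led by Camk1d, Igf2 and ribosomal genes) and 76.9 CPM in 1556 P3 nuclei (median of 971 UMIs, led by hemoglobin and mitochondrial genes).

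**Figure D3:**
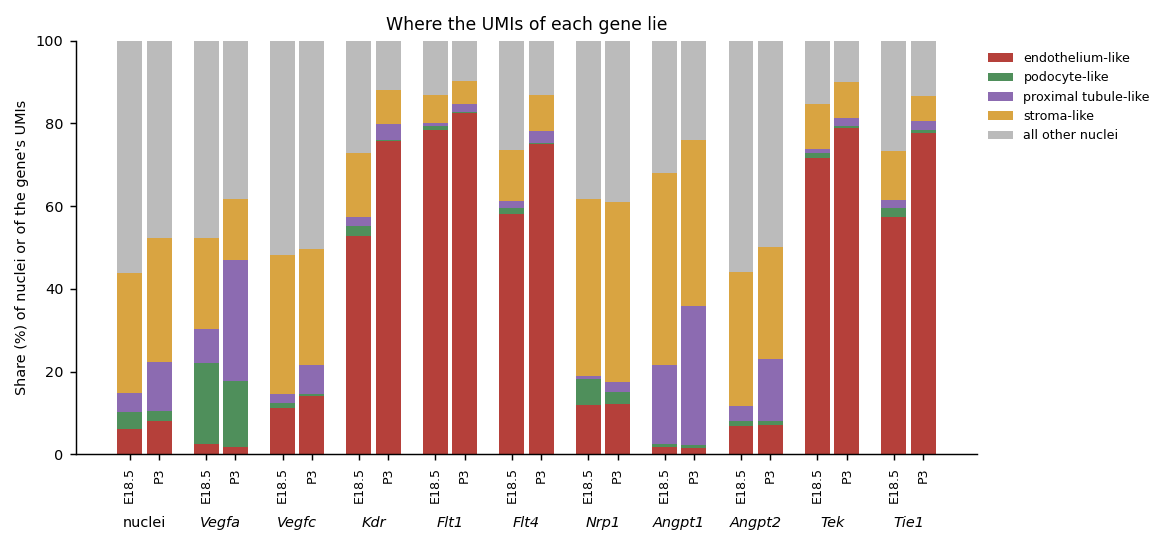
Share (%) of all nuclei (first pair of bars) and of the UMIs of each gene in endothelium-like, podocyte-like, proximal tubule-like and stroma-like nuclei, with all other nuclei in gray, at E18.5 and P3. Endothelium-like nuclei hold 52.8% to 82.6% of the UMIs of the 5 receptor genes from 6.20% and 8.13% of the nuclei. Proximal tubule-like nuclei hold more of the bars of nuclei, Vegfa and Angpt1 at P3 than at E18.5, where their number depends on the clustering.

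The co-receptor Nrp1, which binds both VEGF and semaphorins, was broad. Endothelium-like nuclei were at 665 CPM (2148 UMIs) at E18.5 and 649 CPM (1912 UMIs) at P3. Leukocyte-like nuclei reached 558 and 719 CPM, podocyte-like nuclei 513 and 443.7, and stroma-like nuclei 486 and 533. At P3 leukocyte-like and endothelium-like nuclei were not separated (1.11, 0.99 to 1.24). Of the leukocyte-like nuclei at P3, a cluster of 119 nuclei led by the macrophage genes Mrc1 and F13a1 was at 888 CPM, and a cluster of 52 nuclei with Ptprc, Ikzf3 and Ighm among its leading genes at 171. Proximal tubule-like nuclei were lowest at both ages, at 43.5 and 44.1 CPM. Stroma-like nuclei, the most numerous class, held 42.7% of Nrp1 UMIs at E18.5 and 43.5% at P3, against 11.9% and 12.3% in endothelium-like nuclei.

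Endothelium-like nuclei were clustered again, and the 10 genes again took no part in the clustering. A subcluster with at least 3 of the arterial markers raised was found at each age, called arterial-like, with 42 of 1057 nuclei (3.97%) at E18.5 and 41 of 772 (5.31%) at P3. The raised markers were Gja5, Sox17, Efnb2, Bmx and Fbln5 at both ages, and Gja4 at P3. Vegfc in these nuclei was at 1367 CPM (170 UMIs, 1169.5 to 1589) at E18.5 and 1484 CPM (245 UMIs, 1304 to 1682) at P3. Other endothelium-like nuclei were at 31.2 and 64.7 CPM, so the arterial-like subclusters held 63.7% and 57.6% of all endothelial Vegfc UMIs. Nrp1 was also higher in them, by 1.60-fold (1.32 to 1.91) and 1.82-fold (1.55 to 2.11). Tek was lower, at 282 against 901 CPM at E18.5 and 527 against 1500 CPM at P3, and so was Flt4, at 16.1 against 81.1 CPM (2 UMIs) and 30.3 against 105 CPM (5 UMIs). Kdr was at 0.34 of the other nuclei at P3 (0.20 to 0.52), while at E18.5 the interval included 1 (0.80, 0.54 to 1.16). Flt1 was at 0.68 (0.58 to 0.80) and 0.74 (0.62 to 0.87) of the other nuclei, and Angpt1 was higher at P3 (1.92, 1.11 to 3.13). Tie1 showed no difference beyond counting error, with ratios of 1.17 (0.73 to 1.79) and 1.17 (0.81 to 1.65).

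The remaining endothelium-like nuclei also differed among themselves. At E18.5 a subcluster of 286 nuclei led by Phactr1, Nlgn1 and Egfem1 was at 1354 CPM for Tek, and a subcluster of 474 nuclei led by Gzmk, St8sia4 and Prdm1 at 626. The first was lower in Nrp1 (513 against 777 CPM) and in Kdr (230.0 against 339 CPM). In the first, 4 of 6 lymphatic markers were raised (Prox1, Lyve1, Mmrn1 and Reln), Flt1 was at 2121 CPM and Flt4 at 107. It is called here by its leading genes and given no vessel type. At P3 a subcluster of 130 nuclei that shared the leading genes Egfem1, Nlgn1 and Unc5d with it was at 1944 CPM for Tek. That P3 subcluster had 1 of 6 lymphatic markers raised (Reln). A subcluster of 72 P3 nuclei with Prdm1, Sntg2 and St8sia4 was at 620.2 CPM for Tek, 973 for Nrp1, 405 for Kdr and 742 for Flt1. The highest Kdr level at P3 among subclusters of at least 40 nuclei was 436 CPM in 341 nuclei led by Fam184b. Angpt2 was at 118 CPM (100 UMIs) in a subcluster of 220 E18.5 nuclei led by the cell division genes Depdc1a and Prc1, 2.14-fold (1.63 to 2.80) above other endothelium-like nuclei. At P3 it was at 94.4 CPM (30 UMIs) in 59 nuclei led by Prc1 and Iqgap3, a ratio of 2.82 (1.80 to 4.31), and at 53.9 CPM (17 UMIs) in 71 nuclei led by Diaph3, a ratio of 1.41 (0.79 to 2.36).

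**Figure D4:**
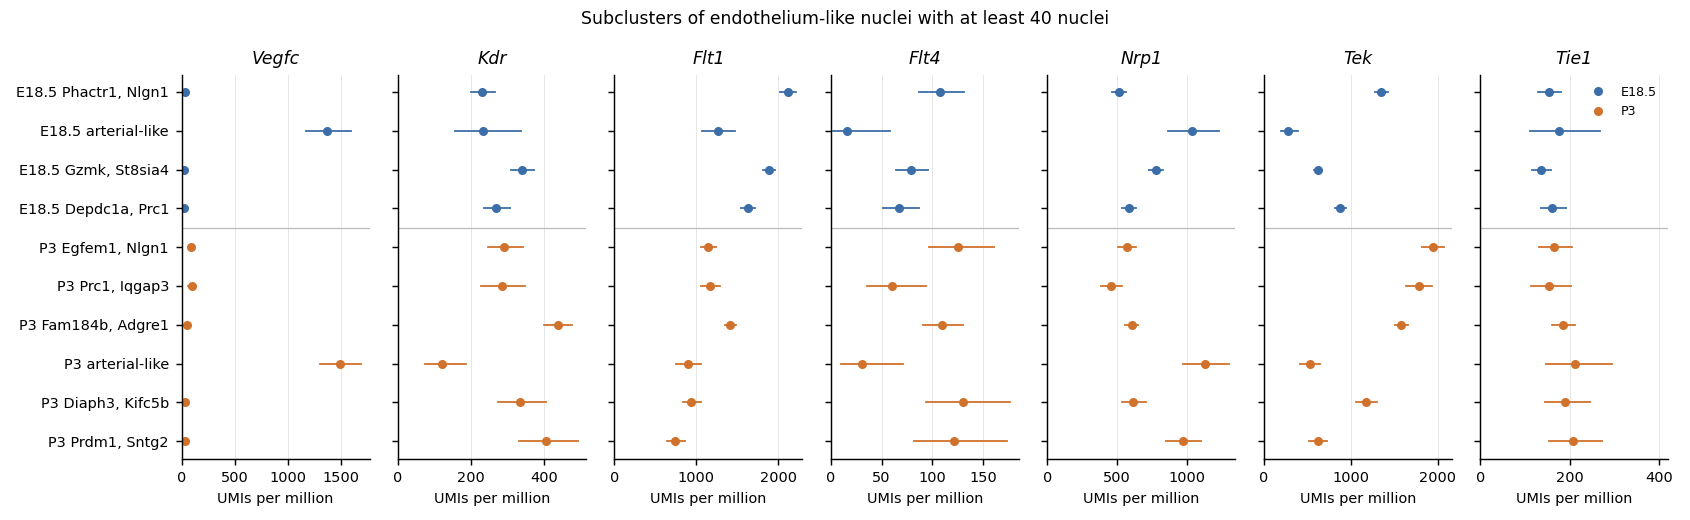
Level of 7 genes (CPM) in the subclusters of endothelium-like nuclei with at least 40 nuclei, named by their leading genes or as arterial-like, with exact Poisson 95% intervals. Vegfc stands at 1367 and 1484 in the arterial-like subclusters, which are low in Tek and Flt4, and Tie1 stays within a narrow range.

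Stroma-like nuclei differed in Nrp1, Tek, Angpt2 and Angpt1 when clustered again. At E18.5 Nrp1 was at 1662 CPM in 75 nuclei led by Serpini1, Dkk2 and Stac and at 1372 CPM in 176 nuclei led by Sema5b and Clstn2. Both had all 5 pericyte markers raised (Abcc9, Kcnj8, Cspg4, Rgs5 and Notch3), and 2 of 3 renin markers. Of 5 mesangial markers, 3 were raised in the first (Piezo2, Gata3 and Pdgfrb) and 1 in the second (Pdgfrb). At P3 Nrp1 was at 2627 CPM in 19 nuclei led by Dkk2 and Serpini1. These had 1 of 5 pericyte markers raised and the same 3 mesangial markers. It was at 1514 CPM in 31 nuclei led by Trpc4 and Stac. Those had the same 5 pericyte markers raised, 2 of 3 renin markers and 2 of 5 mesangial markers. Angpt2 was highest in the Sema5b subcluster at E18.5, at 232 CPM (125 UMIs), 3.61-fold (2.97 to 4.35) above other stroma-like nuclei. At P3 it was at 140.3 CPM (17 UMIs) in 32 nuclei led by the renin gene Ren1 and at 138 CPM (18 UMIs) in the Trpc4 subcluster. Tek reached 199 CPM (35 UMIs) in 51 E18.5 nuclei led by Fgf10 and Ebf2 and 329 CPM (34 UMIs) in 23 P3 nuclei led by Sntg1, Fgf10 and Ebf2, 7.88-fold (5.41 to 11.1) and 9.49-fold (6.49 to 13.5) above other stroma-like nuclei. Angpt1 ranged from 25.9 CPM in 226 E18.5 nuclei led by Lrp1b and Ntn1, the subcluster in which Vegfc was at 145 CPM, to 356 CPM in 810 nuclei led by Nrp2 and Kcnk2. At P3 a subcluster led by Luzp2, also with Ntn1 among its leading genes, had 77.1 CPM for Angpt1 and 214 CPM for Vegfc, while 374 nuclei led by Gpr176 and Esr2 had 483 CPM for Angpt1.

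Other genes of the pathway were counted from a list, against the shares of all genes given above (8.38% higher and 13.8% lower at E18.5, 9.35% and 18.7% at P3). Of 8 genes that respond to VEGF in endothelium, 5 had at least 10 CPM and were at least 2-fold higher in endothelium-like nuclei at E18.5, and 5 at P3. Nos3, Dll4, Esm1 and Apln, where counted, passed the 10 CPM filter through the endothelium-like nuclei alone. So did Aplnr and Plvap at P3, and thus all genes counted at that age. The count is only a description. The counted genes included the nitric oxide synthase gene Nos3 (71.2 and 94.98 CPM, 22.3-fold and 57.7-fold), the Notch ligand gene Dll4 (22.6 and 15.3 CPM) and the apelin receptor gene Aplnr (46.4 and 87.2 CPM). The tip cell gene Esm1 was counted at E18.5 only, at 19.5 CPM, and was at 6.11 CPM at P3. Of 8 co-receptors and modifiers, 2 were higher and 5 lower in endothelium-like nuclei at each age. The higher ones were Nrp2 (306 and 366 CPM) and the semaphorin receptor gene Plxnd1 (179.9 and 277.5 CPM). Svep1 and Ccbe1, which encode secreted partners of the TIE1 and VEGF-C pathways, and the semaphorin genes Sema3a and Sema3c were lower. Of the 4 other ligands, Vegfd was lower at E18.5, and Vegfb and Vegfd were lower at P3. Vegfb and Vegfd at P3 passed the 10 CPM filter through the other nuclei alone. So did Ccbe1 and Adamts3, which are among the 5 lower co-receptors and modifiers at E18.5. Those calls are only a description. Of 6 signal proteins downstream, 3 were higher at each age (Foxo1, Plcg1 and Pik3r3). Of 6 genes of oxygen sensing, 2 were higher, Epas1 at 217 and 219.5 CPM and Egln3 at 257 and 133 CPM. At P3 Egln3 also passed the filter through the endothelium-like nuclei alone.

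The ages were set side by side in 4 classes, which were not made of the same clusters at both. Endothelium-like, podocyte-like and proximal tubule-like nuclei made 1 cluster each at E18.5 and 2 each at P3. A cluster led by Nrxn3, with Kcnd2, Apcdd1 and Adamts17, was part of the stroma-like nuclei at E18.5, whereas the P3 cluster that shared those last 3 leading genes (188 nuclei) stayed unnamed and was left out. In endothelium-like nuclei, 2 of 10 genes were at least 1.5-fold higher at P3, against 9.03% of all 10849 genes compared, and 3 were at least 1.5-fold lower, against 25.2%. Tek was 1.65-fold (1.57 to 1.73) and Vegfc 1.74-fold (1.49 to 2.04) higher. Flt1 was at 0.66 (0.63 to 0.68), Angpt2 at 0.56 (0.44 to 0.70) and Vegfa at 0.53 (0.40 to 0.70) of the E18.5 level. Kdr (1.20), Flt4 (1.29) and Tie1 (1.20) had intervals above 1 without reaching the limit, and Nrp1 was at 0.98 (0.92 to 1.04). The sum of the 5 receptor genes was nearly level, with a ratio of 1.02, with Tek and Flt1 on opposite sides of 1. Without the arterial-like nuclei the ratios were 1.67 (1.59 to 1.75) for Tek, 2.07 (1.61 to 2.68) for Vegfc and 0.66 (0.63 to 0.69) for Flt1. The nuclei that hold most endothelial Vegfc, the arterial-like ones, were at a ratio of 1.09 (0.89 to 1.33). The subclusters also took different shares of the nuclei. Those with Prdm1 and St8sia4 among their leading genes held 474 of 1057 nuclei at E18.5 and 72 of 772 at P3, with Tek at 626 and 620.2 CPM. Those with Egfem1 and Nlgn1 held 286 and 130 nuclei, with Tek at 1354 and 1944 CPM and 4 and 1 of 6 lymphatic markers raised. The largest P3 subcluster, 341 of 772 nuclei led by Fam184b, shared no leading gene with an E18.5 subcluster and has no counterpart here. The part of these shares in the ratio of Tek was not tested.

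The median ratio over all genes was 0.92 in endothelium-like nuclei, and when ratios were divided by it the shares of all genes past the limits were 13.9% higher and 20.5% lower. By that scaling Flt1 no longer passed the limit (0.72) and Angpt1 did (1.57). Over all genes the ratio also differed with intron length: for genes split into 3 equal groups by total intron length, the medians were 0.68 (shortest), 0.88 and 1.18 (longest) in endothelium-like nuclei. Flt1, Tek, Vegfc and Angpt2 all belong to the group with the longest introns, in which Tek and Vegfc lay above the median and Flt1 and Angpt2 below it. Divided by the median of their own group, the ratios were 1.40 for Tek, 1.477 for Vegfc, 0.56 for Flt1 and 0.47 for Angpt2, and 0.78 for Vegfa, which is in the group with the shortest introns. On that scale Tek, Vegfc and Vegfa were no longer past the limit of 1.5. The header of the E18.5 matrix names Cell Ranger 7.0.0 and that of the P3 matrix 5.0.1. The part of these releases in the ratios was not tested.

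In podocyte-like nuclei Vegfa was 1.28-fold (1.17 to 1.40) higher at P3, under the limit of 1.5. Divided by the median of the genes with the shortest introns (0.71) the ratio was 1.79. This comparison joins 1 cluster at E18.5 with the 2 P3 clusters at 352 and 1103 CPM, which lie on either side of the E18.5 level of 595. Of 8 members with at least 10 CPM in podocyte-like nuclei, 2 were at least 1.5-fold higher (Angpt1 and Vegfc, against 10.4% of all genes) and 2 at least 1.5-fold lower (Kdr and Flt1, against 25%). For Kdr these were 3 UMIs at P3 against 42 at E18.5, and for Flt1 7 against 58. Both genes passed the 10 CPM filter through the E18.5 level alone, so their calls are only a description. The interval for Vegfc included 1 (0.82 to 2.84). The 8 endothelial markers together were also lower in these nuclei at P3, at 157.3 CPM at E18.5 and 92.7 at P3, and their part in the difference of Kdr and Flt1 was not tested. Divided by the median of all genes, the shares past the limits were 14.4% higher and 21.6% lower.

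In stroma-like nuclei Angpt1 was 1.501-fold (1.44 to 1.57) higher at P3, from 226 to 340.0 CPM, and divided by the median of genes of like intron length the ratio was 1.32. It was 5.47 with Leiden clustering and 4.49 with markers raised 3-fold, by which few E18.5 nuclei were named as stroma-like. Angpt1 was 1 of 8 members that reached the limit upward, against 6.5% of all genes. Downward 4 of 8 reached it, against 24.2%: Vegfa (0.60, 0.55 to 0.65), Angpt2 (0.50, 0.45 to 0.56), Kdr (0.51) and Flt1 (0.58). Divided by the median of genes of like intron length, Vegfa was at 0.86 and no longer past the limit. Angpt2 was thus lower at P3 in both endothelium-like and stroma-like nuclei. By the median of all genes, 11.1% of genes were past the limit upward and 18.6% downward. In proximal tubule-like nuclei Vegfa (0.99, 0.90 to 1.10) and Angpt1 (0.94, 0.88 to 0.99) were close to the E18.5 level. For Angpt1 this ratio sets 1 E18.5 cluster at 487 CPM against the 2 P3 clusters at 555 and 60.8 CPM. Vegfc was 1 of 8 members past the limit upward (1.54, against 12.5% of all genes), and Kdr and Flt1 were the 2 past it downward (0.49 and 0.51, against 24.4%). Kdr passed the 10 CPM filter through the E18.5 level alone in both proximal tubule-like and stroma-like nuclei, so its calls are only a description. The 8 endothelial markers summed were lower at P3 too, at 136 CPM at E18.5 and 71.9 at P3 in proximal tubule-like nuclei and at 239 and 178 CPM in stroma-like nuclei, and their part in the Kdr and Flt1 ratios was not tested. By the median of all genes the shares there were 16.4% and 20.8%.

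**Figure D5:**
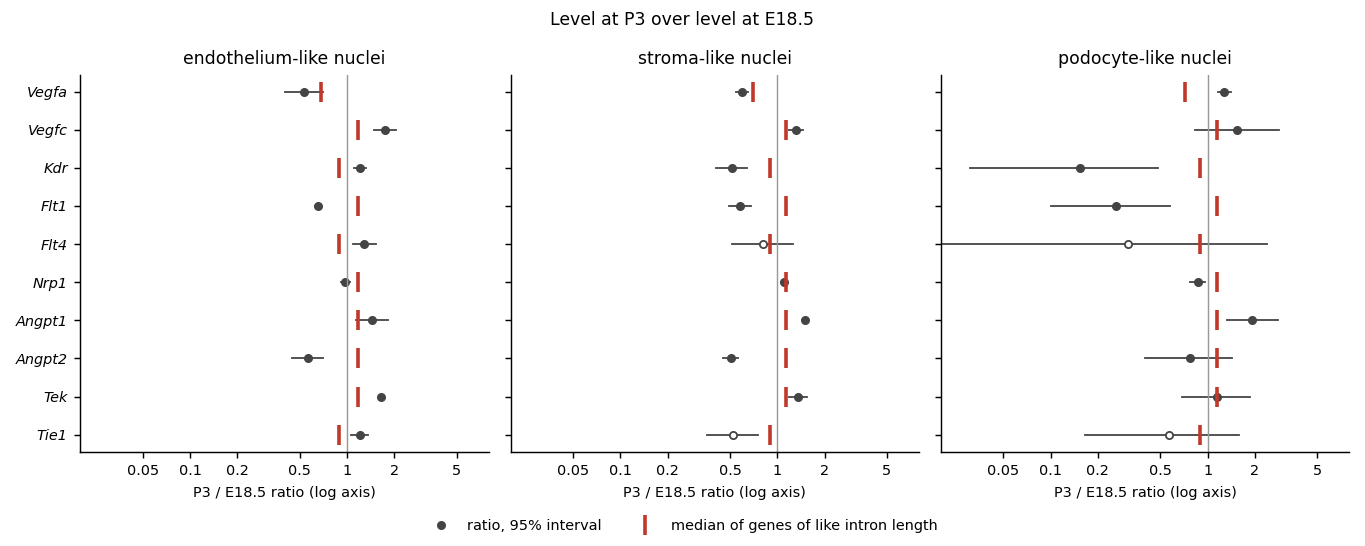
Ratio of the P3 level to the E18.5 level (log axis) of the 10 genes in endothelium-like, stroma-like and podocyte-like nuclei. Lines are exact 95% intervals, open points are genes under 10 CPM at both ages, and red bars are the median ratio of all genes in the same of 3 groups by intron length. In endothelium-like nuclei Tek (1.65) lies right of its bar and Flt1 (0.66) and Angpt2 (0.56) left of theirs.

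The genes whose level over clusters was most like that of each member were sought among 12310 genes over the 48 clusters of both libraries, whose points share libraries and depth. For Flt1 and Tie1 the closest was Ptprb (Pearson r = 0.93 and 0.94), for Tek and Flt4 it was Exoc3l2 (0.90 and 0.95) and for Kdr it was Myct1 (0.89), with the capillary gene Plvap next (0.89). Vegfa was closest to Ddr1 and Angptl2 (0.79 each), Nrp1 to Hip1 (0.82), Vegfc to Sec63 (0.74), Angpt2 to Eri2 (0.71) and Angpt1 to A4galt (0.62). The receptors thus shared their pattern closely with other endothelial genes, whereas no gene came as near to Angpt1. Few of the 48 clusters were endothelium-like, and Ptprb was among the markers that named them. For the receptors these values therefore restate their lead in endothelium-like nuclei.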

How the data were processed

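Nuclei of pooled whole kidneys were profiled with droplet single-nucleus RNA sequencing, 1 library at E18.5 and 1 at P3. The authors deposited filtered UMI counts per gene and nucleus made with Cell Ranger on mm10. The file headers name release 7.0.0 for E18.5 and 5.0.1 for P3, and the labels give 5.0.1 for both. Whether intronic reads were counted is not given in the sources used here, and counts from the 3′ end do not separate the soluble and membrane forms of Flt1 or the forms of Vegfa. The 10 genes and all lists were chosen with earlier results of these data known.

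Nuclei were removed whose log UMIs or log genes lay under the median by over 3 median absolute deviations, or whose mitochondrial share lay above it by 3 deviations and 0.5 percentage points. Kept UMIs summed to 77321253 at E18.5 and 70055219 at P3. Each library was normalized with scran 1.30.0 and clustered on its own (2000 variable genes, 50 principal components, a graph of 10 neighbors, Walktrap in igraph 2.1.4, R 4.3.3), with the 10 genes and the listed pathway genes left out. A cluster was named where at least 3 markers of a class were raised 2-fold. Clusters with over 50% called doublets stayed unnamed. So did clusters with more markers of another class than of their own among the 10 leading genes. A median of UMIs under 0.5 of that of the library left a cluster unnamed only where no marker of its class was among those genes. Scrublet (scanpy 1.11.5, rate set to 0.1) marked doublets. Intervals came from scipy 1.17.1. A gene entered a comparison with at least 10 CPM in either group, and called means a ratio of at least 2 between classes or 1.5 between ages. On endothelium-like counts simulated with counting error only for 10455 genes, intervals held the true ratio for 192 of 200 changed genes. Of 10255 unchanged genes, 186 were called. The simulation has no spread between nuclei or animals and so cannot show how the intervals hold with such spread. All 10 genes were named, with the pathway genes of the lists and the 3 genes most alike each by Pearson r of log2(CPM + 10). Promoter sequences were those of RefSeq.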

Additional observations from a re-analysis of the deposited data

How the results depend on the processing

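Each library is 1 pool, so depth limits only counting error and the spread between animals is not known. No paired analysis was possible because each age has 1 library. For Vegfa in podocyte-like against other nuclei (5.49 at E18.5, 7.97 at P3), 20 neighbors gave 6.50 and 8.998, clustering with the listed genes 6.59 and 9.16, and Leiden clustering 9.13 at P3. For the 5 receptor genes in endothelium-like against other nuclei (37.8 and 53.2), doublets taken out before clustering gave 32.8 and 47.3, doublets counted with their class 42.6 at P3, and a gate on 3 of 4 markers per nucleus 22.9 and 35.3. For Angpt1 in stroma-like against other nuclei (1.93 and 1.60), the direction at E18.5 reversed to 0.41 with Leiden clustering and 0.53 with markers raised 3-fold, which named 1362 and 335 nuclei in place of 4920. Other values were 1.79 at E18.5 with doublets taken out first, 1.84 at P3 with Leiden clustering and 1.82 with 20 neighbors. Between ages, podocyte Vegfa (1.28) was 1.43 with Leiden clustering, and the sum of the 5 receptor genes (1.02) was 1.07 with doublets taken out first, 0.95 with the gate and 1.11 scaled by the median of all genes. Stroma-like Angpt1 (1.501) was 5.47 with Leiden clustering, 4.49 with markers raised 3-fold, 1.59 with 20 neighbors and 1.65 scaled by the median of all genes. Vegfc in early nephron-like nuclei at P3 reversed to 0.63 when the listed genes were kept in the clustering. The cause of these shifts was not tested.

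Alternatives chosen after seeing the data gave 1.72 at E18.5 and 1.67 between ages for stroma-like Angpt1 with no rule on low UMIs, 1.80 at P3 and 1.66 between ages with interstitium and mural markers kept apart, and, scaled by genes of like intron length, 1.32 for that gene and 1.79 for podocyte Vegfa. Early nephron-like nuclei at P3 (Vegfc, Angpt2) under Leiden clustering and nephron progenitor-like nuclei at E18.5 (Angpt2) under the 3-fold rule could not be given a value.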
